A study of Mus musculus with 6 samples.

Results

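Broad domains of RNA polymerase II (Pol II) were described in primary mouse myotubes. A broad domain was a Pol II peak of replicate 2 that was at least 2000 bp wide and shared at least 1 base with a peak of replicate 1, and 777 of the 17488 replicate 2 peaks met this rule. The cells were myoblasts of wild type C57BL/6 E18.5 fetuses, taken from limb muscle, grown to passage 17 and held for 48 hours in differentiation medium with horse serum, which makes them fuse into myotubes. Chromatin was fixed with disuccinimidyl glutarate and then formaldehyde and immunoprecipitated with an antibody to the C-terminal repeats of the large Pol II subunit or with an antibody to the transcription factor Sox6. Input DNA, taken before immunoprecipitation, served as background, and each of the 3 kinds had 2 libraries. All libraries came from the same kind of culture, with no second condition. The Pol II libraries held 1538757 and 2762155 aligned reads, the Sox6 libraries 2985437 and 1468604, and the inputs 21973495 and 24249850. Reads were 36 bases long in input replicate 1 and 39 in every other library, and the effect of this on unique alignment was not tested. Width and overlap chose the members, so Pol II values are given as a description with no test. In a mixed culture, more cells that transcribe a gene and more polymerase per cell cannot be told apart.

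Pol II transcribes protein-coding genes, most microRNA precursors and most long noncoding RNAs. Polymerase often accumulates just after the start of a gene, travels through the gene body while the RNA is made, and runs on past the polyadenylation site before it is released. Occupancy over a whole gene body is a known feature of genes that are transcribed at a high rate. In differentiating muscle, the myogenic factors Myod1 and Myog turn on the genes of the contractile apparatus, together with muscle microRNAs such as miR-206, miR-133 and miR-1.

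Of the listed genes, 8 protein-coding ones lay wholly inside a domain, and the upstream sequences of 6 that act in muscle are shown first, since their starts and bodies were both within one stretch of Pol II. Each run is the 250 bases before the annotated start of the longest gene model, read 5′ to 3′ along the strand of the gene from NCBI Build 37 (mm9), and no annotated exon lies in it. Capitals mark CAGCTG (an E-box of the type that myogenic factors can bind), GGAATG (the core of the MCAT element of Tead factors) and TATAAA, searched on both strands, and none of the marked matches overlap.
Mylpf, chr7:134354872-134355121, + strand: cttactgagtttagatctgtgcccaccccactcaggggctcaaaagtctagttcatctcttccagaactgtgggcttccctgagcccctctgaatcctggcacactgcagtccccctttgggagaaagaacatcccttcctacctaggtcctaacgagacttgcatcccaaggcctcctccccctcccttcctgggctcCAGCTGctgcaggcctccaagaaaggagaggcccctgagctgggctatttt
Mybph, chr1:136089775-136090024, + strand: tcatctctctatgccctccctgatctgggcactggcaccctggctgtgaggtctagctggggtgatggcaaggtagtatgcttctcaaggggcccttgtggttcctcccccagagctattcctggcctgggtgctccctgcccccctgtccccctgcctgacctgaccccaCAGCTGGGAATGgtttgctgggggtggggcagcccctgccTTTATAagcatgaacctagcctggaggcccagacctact
Actc1, chr2:113878624-113878873, - strand: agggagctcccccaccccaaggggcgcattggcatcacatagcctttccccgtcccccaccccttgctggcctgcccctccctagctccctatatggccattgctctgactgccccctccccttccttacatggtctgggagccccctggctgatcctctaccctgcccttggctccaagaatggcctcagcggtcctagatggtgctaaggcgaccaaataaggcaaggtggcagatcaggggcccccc
Tnnt2, chr1:137737202-137737451, + strand: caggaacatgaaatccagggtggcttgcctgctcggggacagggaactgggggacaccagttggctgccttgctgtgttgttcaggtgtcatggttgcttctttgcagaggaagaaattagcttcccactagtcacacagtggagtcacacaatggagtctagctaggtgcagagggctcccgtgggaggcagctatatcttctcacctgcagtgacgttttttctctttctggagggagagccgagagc
Myod1, chr7:53631594-53631843, + strand: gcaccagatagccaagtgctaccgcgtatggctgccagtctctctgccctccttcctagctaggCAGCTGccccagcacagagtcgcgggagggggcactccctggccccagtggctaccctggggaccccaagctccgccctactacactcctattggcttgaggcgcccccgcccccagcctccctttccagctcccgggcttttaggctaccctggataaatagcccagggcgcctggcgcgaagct
Myog, chr1:136186331-136186580, + strand: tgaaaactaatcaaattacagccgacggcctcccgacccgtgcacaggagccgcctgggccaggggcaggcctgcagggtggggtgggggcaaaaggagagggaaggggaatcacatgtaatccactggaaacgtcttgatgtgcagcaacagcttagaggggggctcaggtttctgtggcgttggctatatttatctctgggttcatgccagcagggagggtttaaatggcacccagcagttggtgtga

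With the first base before the start counted as -1, CAGCTG began at -51 in Mylpf, at -79 in Mybph and at -186 in Myod1. In Mybph it was followed directly by GGAATG at -73, and TATAAA stood at -39 on the opposite strand. None of the 3 motifs was in the windows of Actc1, Tnnt2 and Myog, nor in those of Myl6 and Tmsb4x, the other 2 of the 8 genes, which are active in many cell types. A motif was thus in 3 of the 8 windows. CAGCTG was in 28 of the 99 upstream windows of protein-coding genes whose start lay in a domain (28.3%), beside 11.9% of all 20654 protein-coding windows. GGAATG was in 14.1% and TATAAA in 8.08% of those 99, beside 11.3% and 11.7% of all. A match is a match of letters and shows no binding.

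MicroRNAs of the muscle pairs on chromosomes 1 and 2 and of the Meg3 to Mirg cluster, all inside domains, are shown with the seed (bases 2 to 8, the stretch that pairs with target RNAs) in capitals. Of 60 microRNA genes with a base in a domain, 55 matched by symbol in the RefSeq table (GRCm38.p6) that holds these sequences.
miR-206-3p: uGGAAUGUaaggaagugugugg
miR-133b-3p: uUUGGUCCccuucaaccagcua
miR-206-5p: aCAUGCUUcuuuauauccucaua
miR-1a-1-5p: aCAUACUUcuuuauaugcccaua
miR-127-3p: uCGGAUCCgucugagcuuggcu
miR-434-3p: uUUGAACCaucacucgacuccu
The first 4 belong to the muscle microRNA pairs Mir206 with Mir133b and Mir1a-1 with Mir133a-2, and the last 2 to the Meg3 to Mirg cluster. No 2 of these 6 arms share a seed. The 3p arm of Mir1a-1 is not among them, so its seed was not compared with that of miR-206-3p.

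The domains were between 2001 and 27921 bp wide, with a median of 2961 bp, while the other replicate 2 peaks had a median of 221 bp. Of the domains, 133 were 5000 bp or wider and 22 were 10000 bp or wider. Together they covered 0.111% of the genome and held 5.38% of the reads of Pol II replicate 1 and 5.80% of replicate 2. The same bases held 0.246% and 0.258% of the input reads. The median density was 12.4 and 13.4 reads per kb per 1000000 aligned reads (RPKM) for Pol II, 0.812 and 0.851 for the inputs, and 1.37 and 1.63 for Sox6. Pol II density was therefore far above input in both replicates, as the rule requires. At the width limit, the 15 domains of 2001 bp had median Pol II levels of 11.4 RPKM in replicate 1 and 11.9 in replicate 2, and the 19 peaks of 1981 bp just outside it had 10.8 and 13.7 RPKM.

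**Figure D1:**
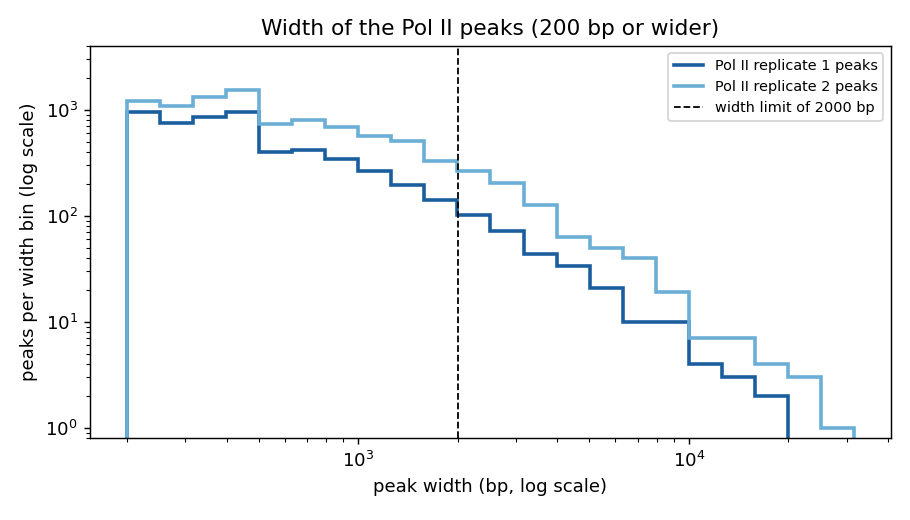
Number of Pol II peaks (log scale) by width in bp (log scale) in each replicate, for peaks of 200 bp or wider, with a dashed line at the width limit of 2000 bp. The domains are 777 of the 789 replicate 2 peaks to the right of the line, where the counts fall off toward the widest peak of 27921 bp, and replicate 1 has fewer wide peaks.

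The replicates gave close levels at the domains. The log2 ratio of replicate 1 to replicate 2 had a median of -0.12 and ran from -1.03 to 0.79, and 735 domains had levels within 1.5 times of each other. Replicate 1, with fewer reads, divided the domains into pieces, since 575 of them met 2 or more replicate 1 peaks and the median domain had 50.8% of its length in such peaks. Replicate 1 had 302 peaks of 2000 bp or more, of which 272 overlapped a domain. In all, 12 wide replicate 2 peaks met no replicate 1 peak, and the widest of them lay in Ppfia4, Dnajb5, Lrrn1, Zfp106 and Rpl31. In Ppfia4 the level was 4.67 RPKM in replicate 1 and 10.4 RPKM in replicate 2. Its inputs were at 0.654 and 0.876 RPKM. All 789 wide peaks, these 12 among them, had a higher RPKM in Pol II replicate 1 than in its input.

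With 1 longest model per gene, more domains covered a gene end (178) than a gene start (125). The numbers were 255 and 220 with the ends and starts of every transcript. A start within 1 kb was met by 231 domains, a count not made for ends. A total of 422 domains (54.3%, beside 72.4% of the other peaks) were inside a gene and touched neither end, 122 covered an end only, 69 a start only, 43 a whole gene, 13 the start of one gene and the end of another, and 108 (13.9%, beside 22.1%) held no base of a gene. A gene end was inside 22.9% of the domains and 1.36% of the other peaks, and a gene start inside 16.1% and 4.34%. Wider regions meet more ends and starts by their length alone. The centre lay within 1 kb of a gene start in 8.11% of the domains and in 15.9% of the other peaks. This measure can fall with width, since a wide domain that begins at a start can have its centre more than 1 kb away. A start was inside 125 domains, but 63 had their centre within 1 kb of one, against 726 and 2653 of the other peaks. Neither measure takes width into account. The 143 domains that ran over the end of their leading gene reached a median of 1779 bp past it, and the farthest reached 12813 bp. Only genes with a RefSeq transcript were counted, so a domain with no gene can hold another annotated one. Of the 108 domains with no gene, 56 lay within 5 kb after the end of the nearest gene and 21 within 5 kb before a start. GC content had a median of 48.7% in domains and 49.1% in other peaks.

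The 384 protein-coding genes with a base in a domain had Pol II above input, on average, in each interval measured near the start and the end. Their mean level was 10.2 and 10.7 RPKM from 500 bp before to 1 kb after the start, 10.9 and 11.5 RPKM from 1 to 5 kb into the gene, and 11.3 and 11.9 RPKM in the last kb. From 5 to 1 kb before the end the level was 9.245 and 9.83 RPKM. It was highest in the 2 kb after the end, at 13.5 and 13.6 RPKM, and fell to 3.78 and 4.04 RPKM between 5 and 10 kb after it. In the 3419 other protein-coding genes with a replicate 2 peak, the level was highest at the start, at 3.98 and 4.01 RPKM, and was 2.52 and 2.56 RPKM from 1 to 5 kb. Inputs lay between 0.568 and 0.820 RPKM in all these intervals of both groups. The first group was chosen by its wide peaks, so its level is a description. The middle of long genes lay outside these intervals, and in short genes an interval can run past the other end. A few genes can carry a mean, and 50 of the 384 genes had at least 80% of their length in domains.

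**Figure D2:**
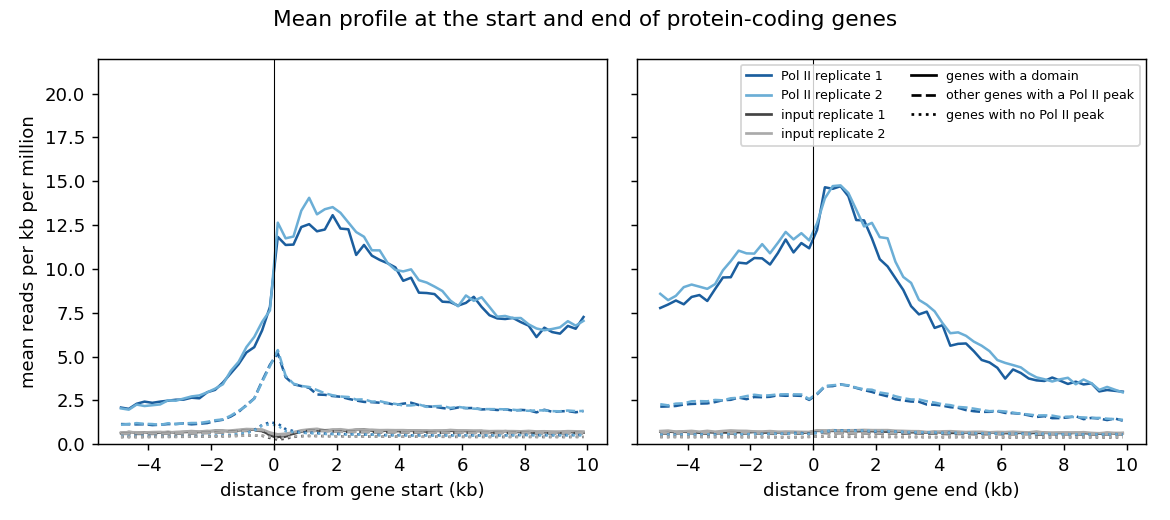
Mean reads per kb per 1000000 by distance from the start (left) and the end (right) of protein-coding genes in 250 bp bins, for genes with a domain (solid), other genes with a Pol II peak (dashed) and genes with no Pol II peak (dotted), 1 colour per library. In genes with a domain both Pol II replicates stay high from the start into the body and are highest just after the end, while inputs stay under 1.

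Counted by genes, 483 of the 23061 annotated genes with a RefSeq transcript (2.09%) had at least 1 base in a domain and 180 (0.781%) had their start in one. Among them were 384 protein-coding genes, 60 of 521 microRNA genes and 10 of 108 small nucleolar RNA genes. Of the protein-coding genes, 17 lay wholly inside a domain, with a median length of 2390 bp, against 17145.5 bp over all protein-coding genes. Over all the gene lists, 112 of 498 genes (22.5%) had a domain, beside the 2.09% of all genes. The lists were chosen with results of these data known and by the tissue, so this share is no independent evidence.

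Thin filament genes, which build the actin filaments and their calcium switch, had a domain in 14 of 19. Actc1, the cardiac alpha actin that fetal skeletal muscle also makes, lay wholly in a domain at chr2:113870511-113878711 and had a gene level of 100.04 and 98.9 RPKM in Pol II, with inputs at 1.04 and 1.02. Acta1, the skeletal alpha actin, had 66.7 and 69.2 RPKM and 98.0% of its length in a domain. The 2 replicates of these genes lay close together and far from the inputs. Neb, the nebulin that runs along the thin filament, had 23 domains over 34.6% of its 202152 bp. The fast troponin T Tnnt3 had 97.7% of its length in 2 domains and the slow troponin I Tnni1 had 32.2% in 1 domain. The tropomyosin Tpm2 had 97.8% in 1 domain at 39.5 and 43.9 RPKM. Tnnt2, the cardiac troponin T, had all 11386 bp in the sixth widest domain, of 19861 bp, with 21.7 and 21.1 RPKM over the gene. The troponin C gene Tnnc1 had 6.40% of its length in a domain of an annotated model that is 41164 bp long. The domain at its end was chr14:32021551-32029751.

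Thick filament and M-band genes had a domain in 11 of 23. Myh3, the embryonic myosin heavy chain, had 4 domains over 89.5% of its 23992 bp, and its gene level was 73.3 RPKM in replicate 1 and 77.8 in replicate 2. Myh8, the perinatal heavy chain, had 6 domains over 76.3% and a lower level of 17.4 and 18.97 RPKM. The heavy chain genes Myh1, Myh2 and Myh4, of adult fast fibres, and Myh13 lie on chromosome 11 too and had no domain. Myh1 was at 1.33 and 1.34 RPKM beside inputs of 0.508 and 0.550. Myh2 was at 0.221 and 0.301 RPKM, Myh4 at 0.406 and 0.307, and Myh13 at 0.117 and 0.174, all 3 below their inputs of 0.460 to 0.526. Among the light chains, Mylpf had all of its 2691 bp in a domain at 62.5 and 73.7 RPKM, and Myl1 had 86.3% of its length in 3 domains at 24.7 and 25.2 RPKM. Myl4, the embryonic light chain, had 3 domains over 26.6% of its 36553 bp. Its level over the gene was 26.5 and 27.4 RPKM, while its domain at chr11:104439891-104447711 had 84.3 and 82.4. The inputs over Myl4 were 1.89 and 2.14 RPKM, higher than over Myh3, at 0.745 and 0.796. Mybph, a myosin-binding protein, lay wholly in a domain at 72.1 and 69.0 RPKM.

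**Figure D3:**
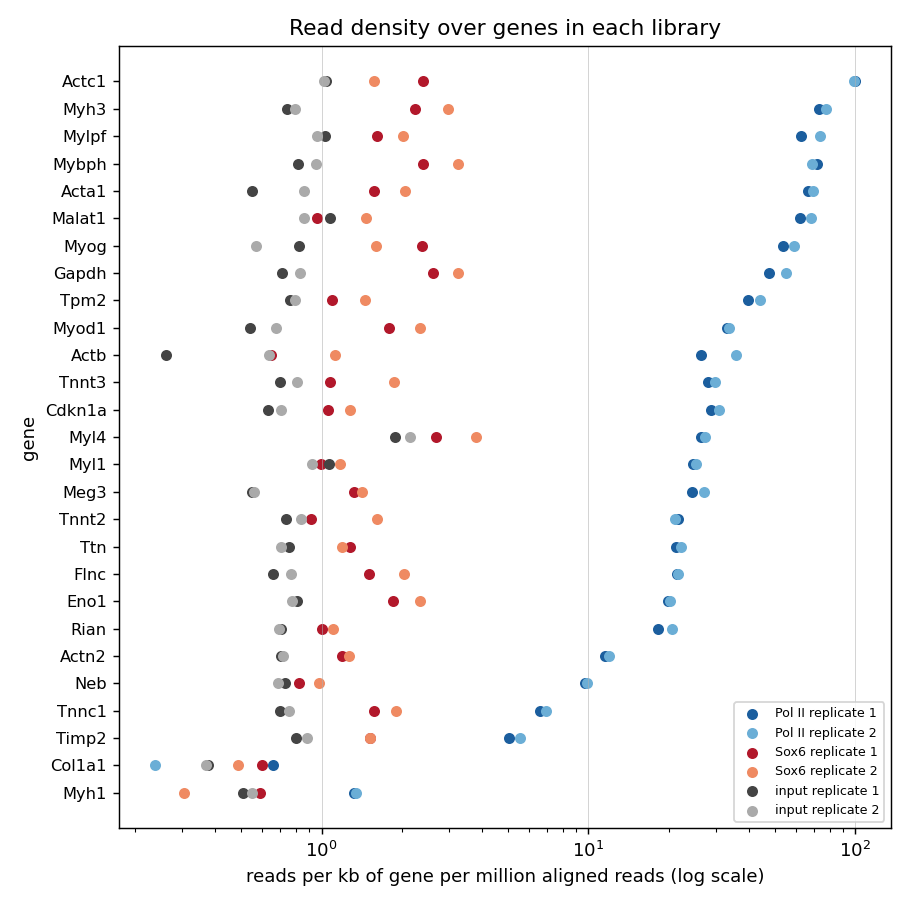
Reads per kb of gene per 1000000 aligned reads (log scale) over 27 genes, 1 point per library. Both Pol II points of the 25 genes with a domain lie to the right of their inputs, from 100.04 and 98.9 for Actc1 to 5.05 and 5.55 for Timp2, while Col1a1 and Myh1 had no domain, with Myh1 at 1.33 and 1.34.

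Z-disc, titin and costamere genes had a domain in 11 of 29. The gene with the most bases in domains was Ttn, the giant protein that spans the sarcomere from Z-disc to M-band. It had 33 domains over 238556 of its 278564 bp (85.6%), with 21.3 and 22.3 RPKM over the gene and inputs at 0.753 and 0.703. Pol II was highest in the first kb of Ttn, at 85.1 and 95.2 RPKM, and in the body, from the bin at 3000 bp to that at 277000 bp leaving out those at 21000 to 26000 bp, it ran from 7.80 to 44.2 RPKM in replicate 1 and from 6.52 to 48.5 in replicate 2. In the 1 kb bins that begin 22000 to 26000 bp after the start, neither input had any uniquely aligned read, and Pol II replicate 1 had none. That gap between domains cannot be read as lack of Pol II. Actn2, the alpha actinin of the Z-disc, had 11 domains over 46.6% of its length. Flnc, the muscle filamin, had 5 domains over 78.7% and Ldb3, a Z-disc scaffold, 4 over 32.6%. The intermediate filament gene Des had 3 over 86.5%. Pdlim3, a further Z-disc protein, had 5 over 50.3%.

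Genes of excitation and calcium handling had a domain in 10 of 24. Jph2, which ties the cell membrane to the calcium store, had the most bases in domains, with 7 domains over 43.5% of its length. The calcium pump Atp2a1 had 14.9 and 14.6 RPKM and 61.6% in domains. Of the acetylcholine receptor subunits, Chrna1 had 16.5 and 19.2 RPKM, Chrng, the fetal subunit, 21.7 and 24.1, and Chrnd 11.5 and 12.5. The calcium channel subunits Cacng1 and Cacna1s had 54.1% and 10.1% of their length in domains.

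Of 34 myogenic and fibre-type transcription factors, 5 had a domain. Myod1 (33.0 and 33.7 RPKM) and Myog (53.6 and 59.1 RPKM) lay wholly inside one. Tead4 had 4 domains, Runx1 3 and Mef2d 1. Of 18 genes for the muscle cell surface and fusion, 7 had one. Tmem8c, the fusion protein of myoblasts, had 72.1% of its length in 2 domains at 19.5 and 20.8 RPKM. The adhesion genes Ncam1 and Cdh15 had 8 and 2 domains, and Cd81, a membrane tetraspanin, had 4. Popdc3 had 2.

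The list of long noncoding RNAs and microRNA or small RNA hosts had a domain in 13 of 23 genes. Glycolysis and energy supply had a domain in 6 of 21, with the enolase Eno1 in a domain of 15981 bp (19.9 and 20.2 RPKM over the gene), Gapdh at 47.5 and 55.0 RPKM, and Aldoa, Pygm and Pgam2 besides. Cytoskeletal genes of all cells had one in 11 of 29, with the most bases in Tubb6, Zyx, Lmna, Cfl2 and Actb. Actb, the beta actin, had 82.4% of its length in a domain at 26.4 and 35.8 RPKM. Its inputs were at 0.263 and 0.634. Translation factors and chaperones had one in 4 of 30 (Hsp90ab1, Eif4a2, Eef1a1 and Eif1), immediate early genes in 2 of 22 (Egr1 and Jun), cell cycle genes in 3 of 24 and ribosomal proteins in 14 of 95. Cdkn1a, the inhibitor that stops the cell cycle during differentiation, had 91.5% of its length in a domain and 28.7 and 30.9 RPKM. The ribosomal genes with the most bases were Rpl3, Rps9, Rps20, Rpl32 and Rps12. Extracellular matrix genes had one in 1 of 40 (2.5%), in Timp2 (5.05 and 5.55 RPKM), and replication-dependent histones in 0 of 67. Both shares are near the 2.09% of all genes. Of the histone genes, 12 had a replicate 2 peak. The median level over the 67 was 1.62 and 1.38 RPKM in Pol II, with inputs at 0.239 and 0.420, so the 0 does not show lack of Pol II.

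The skeletal muscle label was checked with markers. Of 10 skeletal muscle markers, 9 had a domain, and Ckm, the muscle creatine kinase, had none, with a level of 2.73 and 2.66 RPKM. The summed Pol II level of the 10 was 363 and 405 RPKM, with inputs at 6.79 and 7.53. None of the markers of fibroblasts (9), cardiac muscle (7), endothelium (6), blood (7), fat (6), cartilage (6) and Schwann cells and neurons (7) had a domain, and their sums lay between 1.20 and 9.01 RPKM in Pol II. Of all genes, 2.09% had a domain, so lists this short can lack one by that share alone. The lack of domains in these lists therefore says little about the cell type. Blood markers summed to 7.83 and 9.01 RPKM against inputs of 2.13 and 2.69, and cardiac markers to 4.45 and 4.69 against 2.68 and 2.87. Each of these lists had 1 gene with a replicate 2 peak. The other sums were below their inputs, except cartilage in replicate 2 (2.81 against 2.12). Of 6 smooth muscle markers, Acta2, Des and Smtn had one. Des is also a skeletal muscle gene, and Acta2 had 18.3 and 18.7 RPKM.

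Domains also followed each other in chains. With gaps of at most 20000 bp, 537 domains formed 145 chains, and 240 stood alone. The chain over Ttn held 33 domains over 285281 bp and that over Neb 23 over 185101 bp. Other long chains lay over Rbfox2, Actn2, Bin1, Macf1, Jph2, Nav2 and Dlgap4. Macf1, a linker of actin filaments and microtubules, had 22 domains in all but over 18.2% of its 334645 bp, at 7.17 and 7.70 RPKM.

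The widest domain and 4 more of the 20 widest belonged to the imprinted Meg3 to Mirg region of chromosome 12. This region carries the noncoding RNAs Meg3, Rian and Mirg and is processed into many microRNAs and small nucleolar RNAs. One chain of 23 domains ran over 211681 bp (chr12:110778691-110990371), with 86.0% of it in domains, and 46 of its 48 microRNA genes had a base in a domain. Meg3 had 24.5 and 27.2 RPKM, Rian 18.2 and 20.5, and Mirg 16.1 and 17.3, with inputs between 0.462 and 0.704. The Pol II signal did not end between the 3 genes. The domain of 27921 bp over the start of Mirg covered bases of 25 genes, and the next domain 8. A domain at Rtl1 covered 6 genes and a further one 4, as did one at C430049B03Rik on the X chromosome. Pol II fell from 11.7 and 15.6 RPKM in the kb that begins 207000 bp after the start of Meg3 to 1.30 and 0.724 in the kb at 213000 bp.

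**Figure D4:**
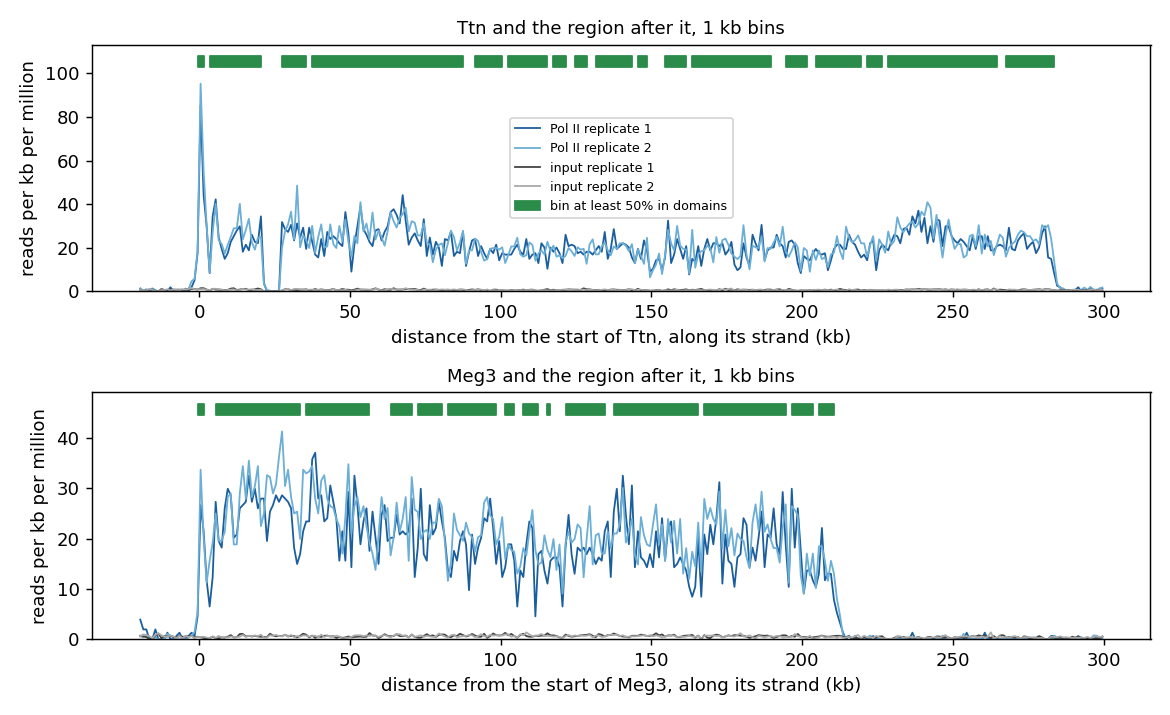
Reads per kb per 1000000 in 1 kb bins by distance (kb) from the start of Ttn (top) and Meg3 (bottom) along their strand, for both Pol II and both input libraries, with green bars where at least 50% of a bin is in domains. Pol II rises at both starts and falls back to the input after the last green bar, with a gap in Ttn where the inputs hold no reads either.

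The densest domains lay around the microRNA genes Mir206 and Mir133b on chromosome 1. The domain of 8601 bp at chr1:20668931-20677531 held both genes at 102 and 123 RPKM. Domains of 2221 and 9621 bp before it, with none of the genes used here, had 118 and 126 RPKM and 99.4 and 104 RPKM. These 3 had the highest replicate 2 levels of all domains, ahead of Myl4, Actc1 and Myh3. Another muscle pair, Mir1a-1 and Mir133a-2, lay in a domain of 15741 bp on chromosome 2 at 52.8 and 54.3 RPKM, the ninth widest of all. Mir133a-1 and Mir1b, on chromosome 18, lay in a chain of 2 domains over 9081 bp in Mib1 at 26.5 and 24.1 RPKM, with 37.9% of Mir133a-1 and all of Mir1b in a domain. Mir22 and Mir21 were in domains too. Malat1, a nuclear noncoding RNA, had 62.3 and 68.2 RPKM in 2 domains. H19, an imprinted RNA abundant in fetal muscle, had no domain although its level was 33.6 and 34.9 RPKM. In replicate 2 it had 1819 bp in peaks narrower than the limit.

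Sox6, a transcription factor studied here for its role in fibre type, is the only readout that did not choose the domains, although the inputs entered both the calling of Pol II peaks and the ratio. Sox6 reads in the 2000 bp at the centre of each of the 17488 Pol II peaks were compared with input by limma with a trend, on log2 values of reads per 1000000 (RPM) with 0.5 reads added, with Benjamini-Hochberg adjustment over all peaks. Sox6 was higher than input at 201 of the 777 domains (25.9%) and lower at 0, beside 13.2% and 0.0229% of all Pol II peaks. At an unadjusted p under 0.05 in either direction the number of domains was 374. The same count was not made over all peaks, so 374 cannot be read as particular to the domains. The median log2 ratio was 0.94 at domains and 0.57 at other peaks, and both Sox6 libraries were above both inputs at 494 domains (63.6%, beside 45.0% of all peaks). The number of domains called higher was 51 without input replicate 1 (483 of all 17488 peaks), 72 without input replicate 2 (737 of all), 519 without Sox6 replicate 1 (9019 of all) and 426 without Sox6 replicate 2 (6684 of all). With 1 Sox6 library the spread came from the 2 inputs alone, the lone library being taken to vary like them, and 24 and 21 domains were then called lower, beside 1478 and 1199 of all peaks. With pseudocounts equal in RPM the number was 70 (715 of all peaks), with reads in the whole peak 350 (1063 of the 4557 peaks tested), and with a quasi-Poisson model 152 (1631 of all peaks). With reads in the whole peak, fitted only to the wider peaks, the medians were 0.88 at domains and 0.83 at the other peaks tested. The gap between them was far smaller than in the window, but the set of other peaks also differed. With a 1000 bp window the medians were 0.87 at domains and 0.66 at other peaks. The other peaks had a median width of 221 bp. At most of them the 2000 bp window therefore lay largely outside the peak, while at domains it lay inside. The median window held 8 and 5 Sox6 reads, so a single domain is imprecise, and the median SE was 0.416 on the log2 scale. Domains had higher Pol II levels than other peaks, and the part of this in the Sox6 ratio was not tested. In the lowest tertile of domains by Pol II level the median log2 ratio was 0.82, and in the highest tertile 1.04.

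**Figure D5:**
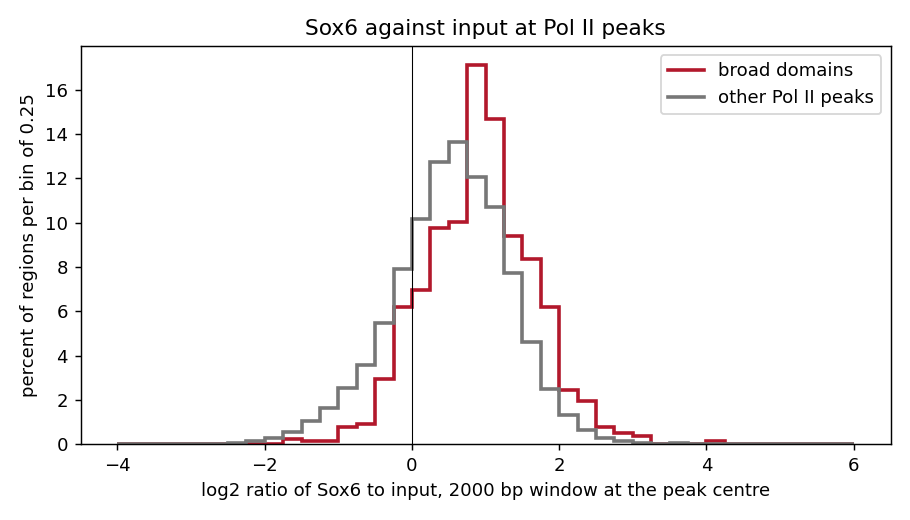
Percent of regions by log2 ratio of Sox6 to input in the 2000 bp window at the peak centre, in bins of 0.25, for the 777 domains and the 16711 other Pol II peaks. Both distributions lie mostly above 0, with medians of 0.94 for the domains and 0.57 for the other peaks.

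The largest ratio was at a domain in Bicd2, a dynein adaptor, where Sox6 was at 36.8 and 42.9 RPM and the inputs at 2.73 and 1.90, a log2 ratio of 4.12 ± 0.26 (SE; limma adjusted p = 0.000164). Its window was the densest in Sox6 among the domains that passed. At the domain that runs over the end of Myh3, Sox6 was at 12.4 and 21.1 RPM and the inputs at 1.502 and 2.19, a log2 ratio of 3.16 ± 0.33 (limma adjusted p = 0.00115). At the Eno1 domain the values were 6.70 and 12.9 RPM against 1.82 and 1.15, and the log2 ratio was 2.70. With a 1000 bp window the Eno1 ratio was 0.40 and did not pass. The common Sox6 peak of this domain, chr4:149620142-149620261, lay inside the 2000 bp window and outside the 1000 bp one. At Chrng the values were 10.4 and 17.7 RPM against 2.23 and 1.81, and the ratio was 2.76. At these 4 both Sox6 libraries were above both inputs. The other domains of the 10 with the largest ratios were those at Iffo1, Inppl1, Coro6 and Traf4 and those near Myh7b and Mir298, with log2 ratios between 2.70 and 3.24. The smallest ratios that passed the test were at Macf1, Hfe2, 1 domain near Mir206, Myl4 and Fn3k, between 0.999 and 1.17. None of these 5 passed with pseudocounts equal in RPM, with the quasi-Poisson model or without either input, and Macf1 (-0.27) and Hfe2 (-0.43) turned negative with a 1000 bp window. Of the 20 widest domains, 4 passed: 1 in Ttn (1.87), Eno1, Mybph (1.54) and Rtl1 (1.81). Each of the 4 calls was lost under some alternative. The Ttn call was lost with 1 read added per library. Those in Ttn, Mybph and Rtl1 did not pass with pseudocounts equal in RPM or without input replicate 1, Mybph and Rtl1 did not without input replicate 2, and Ttn, Mybph and Eno1 did not with a 1000 bp window. The Ttn ratio was 2.74 without Sox6 replicate 1 and 1.005 without Sox6 replicate 2. The Mirg domain, the widest, had a ratio of 1.02 (limma adjusted p = 0.188), and that at Tpm2 had -0.39 (limma adjusted p = 0.665). The 2000 bp window is a small part of the widest domains. With reads in the whole peak the domains at Mirg (1.35), Mir133a-2 (2.26), Arhgef2 (1.59), Tpm2 (1.26), Tnnt2, Tnni1 and Acta2 and a second one in Ttn passed as well, and Mirg also passed without Sox6 replicate 1 (1.39). Of the domains named here, 8 gained a call without Sox6 replicate 1, 7 without Sox6 replicate 2 and 2 with the replicate number as a block.

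Common Sox6 peaks, called in both Sox6 replicates, lay in 50 domains (6.44%, beside 1.25% of other Pol II peaks), with 58 such peaks in all. Per Mb, domains held fewer of them than other Pol II peaks, 19.7 against 35.0. A Sox6 peak counted when it shared any base, which raises the rate of narrow regions, so these rates are not directly comparable. By the longest models of the 23061 genes used, 32 of the 58 were in introns and 22 outside genes, and 4 were in annotated exons. The test above passed in 40 of the 50 domains and in 161 of the 727 others, but the peaks were called on the same reads. The 4 peaks of at most 300 bp and outside exons in the domains with the largest ratios are shown on the + strand of NCBI Build 37, with capitals at ACAAAG or ACAATG, 2 forms of the core that Sox factors bind, searched on both strands.
Bicd2 intron, chr13:49457862-49457981: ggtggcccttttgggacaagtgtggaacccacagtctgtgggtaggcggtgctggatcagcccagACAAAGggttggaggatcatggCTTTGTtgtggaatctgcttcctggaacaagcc
near Myh7b, outside genes, chr2:155432182-155432481: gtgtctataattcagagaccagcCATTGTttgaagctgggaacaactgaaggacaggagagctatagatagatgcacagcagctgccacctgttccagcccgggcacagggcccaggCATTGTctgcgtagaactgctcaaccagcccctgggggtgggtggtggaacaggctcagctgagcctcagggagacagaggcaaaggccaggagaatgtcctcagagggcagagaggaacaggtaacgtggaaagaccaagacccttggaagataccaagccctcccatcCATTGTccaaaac
after Myh3, outside genes, chr11:66916682-66916941: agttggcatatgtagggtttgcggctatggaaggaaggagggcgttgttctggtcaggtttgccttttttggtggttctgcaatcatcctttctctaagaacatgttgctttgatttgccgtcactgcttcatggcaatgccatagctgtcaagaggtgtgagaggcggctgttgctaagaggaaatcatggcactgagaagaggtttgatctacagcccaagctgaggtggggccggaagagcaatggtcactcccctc
Coro6 intron, chr11:77278242-77278421: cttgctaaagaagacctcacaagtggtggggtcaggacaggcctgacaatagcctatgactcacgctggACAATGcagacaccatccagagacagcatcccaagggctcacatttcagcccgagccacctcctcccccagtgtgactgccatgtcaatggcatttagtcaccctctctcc

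In the 450 bp around the Bicd2 peak Sox6 had 89 and 49 reads, Pol II had 12 and 19, and the inputs had 19 and 5. The Coro6 peak had 14 and 18 Sox6 reads and 9 and 9 input reads, from input libraries that are far deeper. The Myh3 peak, with no match, had 11 and 6 Sox6 reads and 7 and 13 input reads. It lay outside the 2000 bp window that gave the ratio of its domain. That window held the other common Sox6 peak of the domain, chr11:66917842-66918521. Such a letter match was in 22 of the 58 peaks (37.9%), in 52.8% of the 1008 common Sox6 peaks outside domains, and in 25.9% of the windows of the same widths at 2000 bp to either side. In Myl4, Tnnc1, Chrng, Tnni1 and the muscle microRNA regions on chromosomes 1 and 2, common Sox6 peaks lay in a domain with high Pol II.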

How the data were processed

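The authors sequenced single reads on an Illumina Genome Analyzer II after 18 cycles of PCR, aligned them with Bowtie (0.12.5 in the submitters' processing notes) to NCBI Build 37 (mm9), kept reads with a unique position and ran the peak caller SISSRs with each experiment's input as background. They deposited the positions of reads and of peaks, with no counts. The score of the Pol II peaks in the deposited lists was not used, and repeated positions are still present.

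Genes were the 23061 GENCODE genes with a RefSeq transcript, 1 longest model per symbol. Reads were counted by their 5′ end and given per kb and per 1000000 aligned reads (RPKM). Sox6 was compared with input by limma 3.58.1 in R 4.3.3, fitted to all 17488 replicate 2 Pol II peaks, two-sided, with a threshold of 0.05. Python 3.11.15, numpy 2.4.6, pandas 2.3.3 and matplotlib 3.10.9 were used. The fit was tested on simulated data. The methods describe independent experiments for each antibody, but whether these came from separate cultures is not in the labels, so p-values measure the spread between these libraries, which may be technical.

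The domains, the gene lists and the markers were chosen with earlier results of these data known. Genes named are the 20 widest domains, up to 5 members per list with the most bases in domains, the 10 largest and 5 smallest Sox6 ratios that passed, Actb, Myh3, Myl4 and Tnnc1, up to 5 wide peaks with no replicate 1 peak, the 5 domains over the most genes, and a few more named after their values were seen (such as H19, Myh1, Malat1 and Ckm). Of the 8 upstream sequences that a rule gave, 6 are shown, and all 4 of the Sox6 peaks. Both rules left out chromosome 18. Alternatives were other widths, overlaps, gene models, windows, pseudocounts and scalings, a quasi-Poisson model, a filter on reads, repeated positions counted once, the replicate number as a block and each library left out in turn.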

Additional observations from a re-analysis of the deposited data

How the results depend on the processing

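The number of domains was 1196 at 1500 bp or more, 374 at 3000 bp or more, 394 with at least 50% of the width in replicate 1 peaks, and 302 with the replicates exchanged, and 954 with peaks no more than 500 bp apart joined. Domains over a gene start numbered 231 with starts within 1 kb and 220 with the starts of every transcript, instead of 125, and those over a gene end 255 with the ends of every transcript, instead of 178. Domains with a Sox6 peak numbered 123 when peaks of either replicate counted. Of the listed genes, 42 had their start in a domain, against 112 with any base. Domains with more Sox6 than input numbered 70 with pseudocounts equal in RPM and 350 with reads of the whole peak, and between 51 and 519 with 1 library left out. With the replicate number as a block it was 287 (3513 of all peaks, against 2308 without it). The authors used each experiment's input as background, so a number may mark a shared experiment, which the labels do not state. The Sox6 and input deviations of the same number correlated at 0.0462 across windows, over 2 pairs. Sox6 log2 ratios that turned sign and passed the test on one side were those of Macf1 (-0.27) and Hfe2 (-0.43) with a 1000 bp window and that of Tpm2 (1.26) with reads of the whole peak. Ratios that passed on neither side also turned negative near Rian (-0.37 without Sox6 replicate 2), in a Ttn domain (-0.08 with a 1000 bp window) and at Arhgef2 (-0.41 to -0.07 under 4 settings). Of the 34 domains named for their ratio or width, 5 lost their call with a 1000 bp window and did not turn sign, 8 with pseudocounts equal in RPM, 5 with the quasi-Poisson model, 1 with 1 read added and 8 and 7 without input replicates 1 and 2. Calls were gained at 7 with reads of the whole peak, beside Tpm2, at 8 and 7 without Sox6 replicates 1 and 2, at 2 with the block, and at 1 each with a 1000 bp window and with repeated positions counted once. The cause was not tested. Repeated positions counted once, an addition chosen after seeing the data, left the median Pol II levels at 12.5 and 13.4 RPKM. Depth limits single domains, with a median of 8 and 5 Sox6 reads per window.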
